A study of Homo sapiens with 12 samples.

Results

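Netrin signalling was followed through 10 genes of the 28278 gene symbols in the count table. They were picked by name as 1 signalling family, with earlier results of these data known. They are the netrin ligands NTN1 and NTN4, the receptors DCC, NEO1 and DSCAM, the receptors UNC5A, UNC5B, UNC5C and UNC5D, and the long noncoding RNA UNC5B-AS1. Poly(A) RNA was sequenced from motor neurons made from the human embryonic stem cell line WA09-Islet1-GFP, which is wild-type apart from a GFP reporter that is on where the motor neuron transcription factor Islet1 is expressed. Cultures received cis-chlordane, an organochlorine pesticide, or the solvent DMSO for 16 hours, and FACS then split each culture into GFP-positive and GFP-negative cells. The dose is 10 µM in the sample labels and 16 µM in the study's methods. This gave 4 groups of 3 libraries, which are control GFP-negative, treated GFP-negative, control GFP-positive and treated GFP-positive. All groups come from 1 line, and the GFP-negative cells are whatever did not express the reporter. A replicate is an independent thaw of stored cells, so the p-values of treatment measure the spread between thaws of this line. The study states that its experiments span more than 1 differentiation, which may be part of that spread. Sort and interaction tests took the sorts of a culture as separate samples, except where a replicate block is named.

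Netrins are secreted proteins that steer growing axons. DCC mediates attraction toward netrin-1, its relative NEO1 binds both netrins and RGM proteins, and DSCAM is an adhesion molecule that can act as a netrin receptor. UNC5 proteins mediate repulsion, alone or together with DCC, and both DCC and the UNC5 proteins are known as dependence receptors, which can trigger cell death when no ligand is bound. In the spinal cord, floor plate cells at the ventral midline and ventricular zone progenitors make netrin-1, and motor axons that leave the cord express UNC5 receptors.

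Library totals ranged from 23414935 to 38347050 counts, with a median of 31553596. ISL1 was at 65.9 ± 3.18 CPM (counts scaled to library size) in control GFP-positive cells and at 2.56 ± 0.189 CPM in control GFP-negative cells (SD, n = 3 each), and 7 of 8 motor neuron markers were called higher in the GFP-positive cells. The exception, LHX3, was called lower there. ISL1 is 1 of the 7, and its reporter set the sort, so its own difference was favoured in advance. Of all 15404 genes tested, 7.47% were called higher in the GFP-positive cells. ISL1 fell with treatment to 12.0 ± 3.72 CPM in GFP-positive and 0.549 ± 0.153 CPM in GFP-negative cells, the gene whose reporter defines the sort. The stem cell gene POU5F1 had no count in any library. Control GFP-negative replicate 3 held 18.1 CPM of the endothelial gene PECAM1, against 0.329 and 0.264 CPM in replicates 1 and 2.

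The receptor gene UNC5B lies on chromosome 10 (hg38, 71212570 to 71302864, plus strand) and has 17 exons. UNC5B-AS1 (71217220 to 71218294, minus strand) lies inside the first intron of UNC5B, from 4.650 to 5.724 kb past the UNC5B start, and its exons overlap 0 bases of UNC5B exons. The library kit keeps strand, but whether the counting used it is not given in the sources used here. Without strand, unspliced UNC5B reads from that intron and UNC5B-AS1 reads could not be told apart.

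**Figure D1:**
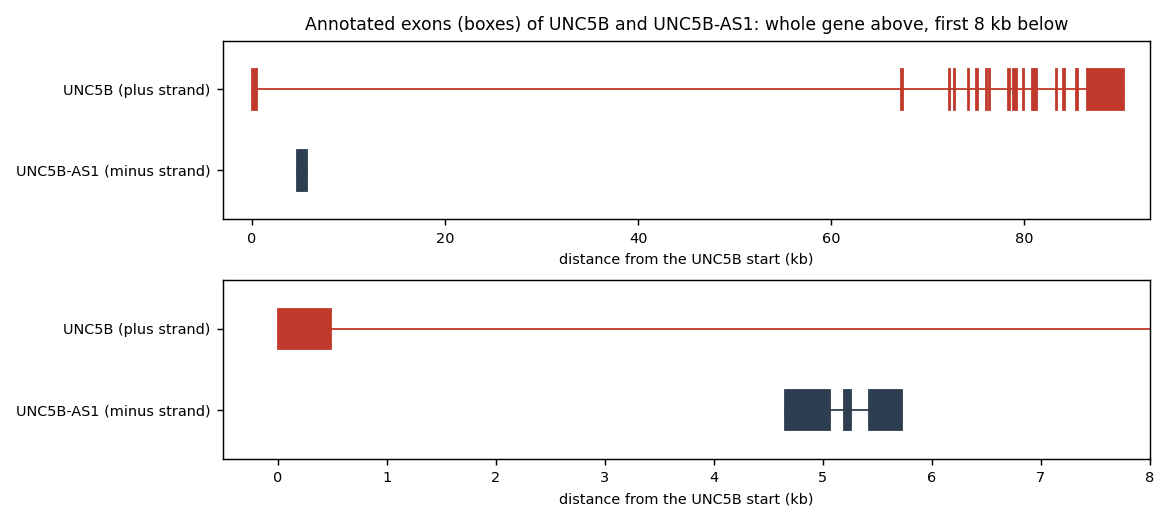
Annotated exons (boxes) of UNC5B and UNC5B-AS1 against the distance from the UNC5B start in kb, for the whole gene above and its start below. UNC5B-AS1 sits between the first UNC5B exon, which ends at 0.494 kb, and the next, which starts at 67.251 kb.

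The 250 bases before the RefSeq start of UNC5B-AS1 are shown because this gene had the highest fold change of the 10 and starts within UNC5B. That start differs from the one in the gene coordinates above, so part of the stretch lies inside the gene as given there. The sequence is from RefSeq (GRCh38.p14, chr10:71218229-71218478, minus strand) and is 49.6% G and C.
UNC5B-AS1 promoter: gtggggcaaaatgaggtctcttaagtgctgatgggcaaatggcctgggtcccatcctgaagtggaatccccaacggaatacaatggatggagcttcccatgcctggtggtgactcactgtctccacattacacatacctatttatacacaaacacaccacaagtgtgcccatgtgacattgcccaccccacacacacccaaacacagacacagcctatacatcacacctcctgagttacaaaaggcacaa
Both strands of this stretch, and of the same stretch of NTN4, DCC, NEO1, DSCAM, UNC5A and UNC5C, were searched for 4 motifs of stress-regulated genes. They are the ER stress element (CCAAT and CCACG with 9 bases of any kind between), the C/EBP-ATF element TGATGNAAN, the cyclic AMP element TGACGTCA and the unfolded protein response core TGACGTGG. None of the 4 was found in these stretches, so no base is in capitals. Over all 35116 promoters of the table, 0.074%, 3.13%, 1.65% and 0.612% hold them, in that order. Promoters of UNC5B, NTN1 and UNC5D were not analysed here.

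The first question was how cis-chlordane changed these genes in each sort fraction. In GFP-positive cells UNC5B, UNC5B-AS1 and DSCAM were higher and NTN1, UNC5A, UNC5C and UNC5D lower after treatment, which is 7 of the 10 genes. A gene was called at an adjusted p under 0.05 (edgeR's quasi-likelihood test, Benjamini-Hochberg over all genes tested) with a change of at least 2-fold. By this rule 24% of the 15333 genes tested were called in GFP-positive cells (12.8% higher and 11.2% lower). In GFP-negative cells UNC5B, UNC5B-AS1 and DSCAM were again higher and NTN1, UNC5A and UNC5C lower, 6 of 10 against 18.3% of the 15513 genes tested (8.59% higher and 9.75% lower). Treated and control libraries did not overlap for 8 of the 10 genes in GFP-positive cells, where 57.5% of all genes tested were so separated, and for 7 of 10 in GFP-negative cells, where 46.6% were. UNC5B-AS1 passed the filter on low counts only through the treated libraries, so it had to differ. It is nevertheless included in these counts of called and separated genes, in both fractions. In these bulk libraries, fewer cells that express a gene and less RNA of it per cell cannot be told apart.

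**Figure D2:**
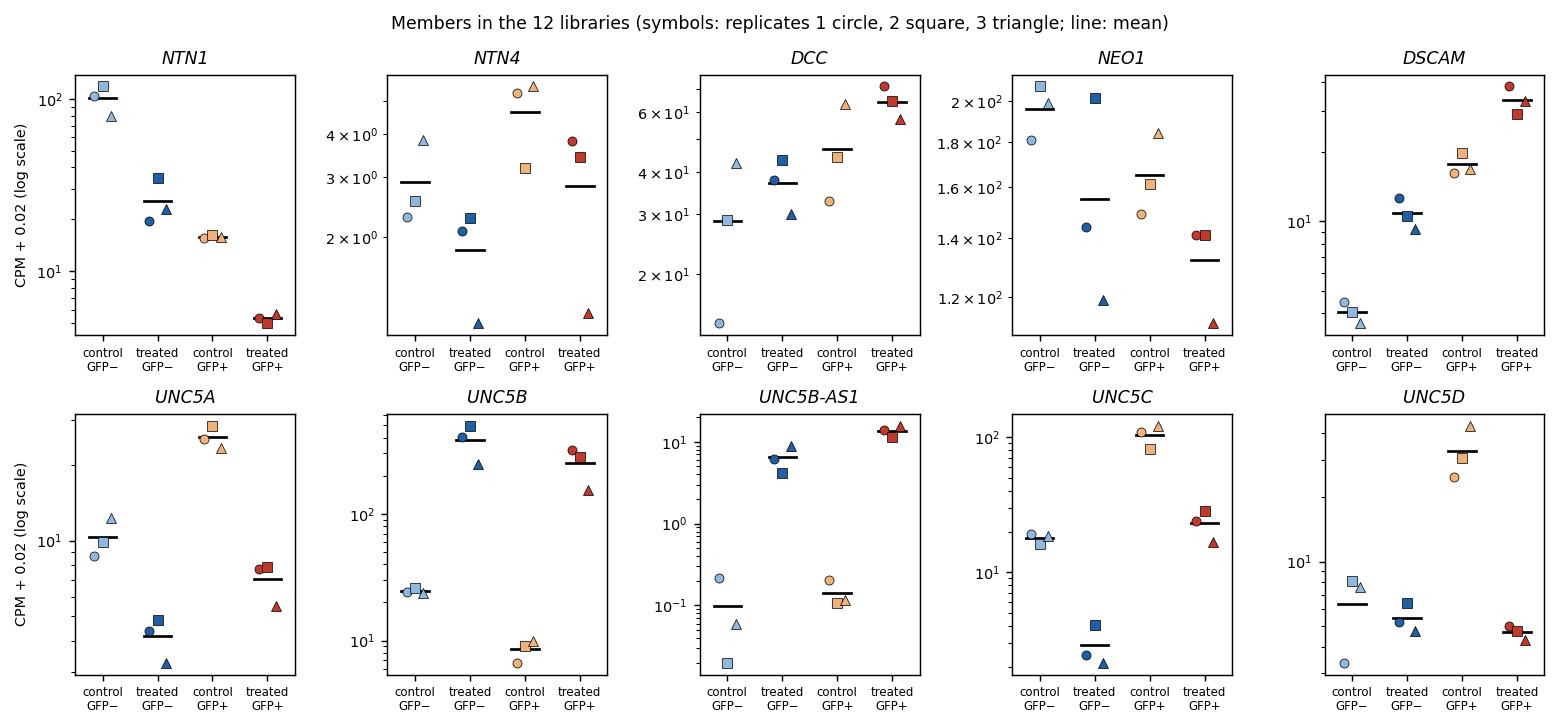
CPM of each gene in each of the 12 libraries (log scale, 0.02 CPM added), by group, with a symbol per replicate and a line at the group mean. UNC5B and UNC5B-AS1 are high in all 6 treated libraries, whereas UNC5D is high in the 3 control GFP-positive libraries alone.

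Per exon length, UNC5B was the most abundant of the 10 genes after treatment. In GFP-positive cells it was at 6.67, 9.01 and 9.84 CPM in control replicates 1, 2 and 3 and at 319, 281 and 153 CPM in treated replicates 1, 2 and 3. In GFP-negative cells it was at 24.0, 26.1 and 23.9 CPM in the controls and at 402, 497 and 246 CPM after treatment. The groups were far apart in both fractions, and replicate 3 was the lowest treated library in each. The log2 fold change was 4.95 (SE 0.23, adjusted p = 7.2e-19) in GFP-positive and 3.93 (SE 0.27, adjusted p = 1.8e-05) in GFP-negative cells. In the controls UNC5B was lower in GFP-positive than in GFP-negative cells, with a log2 difference of -1.65 (SE 0.20, adjusted p = 0.00013). After treatment this difference was -0.59 (SE 0.27, adjusted p = 0.09) and the fractions overlapped. Within each of the 3 cultures UNC5B was lower in the GFP-positive sort, and with the replicate block the difference was -0.59 with an SE of 0.14 (adjusted p = 0.00085), still under the 2-fold limit. With a trend with GC content removed as well it was -0.23 (adjusted p = 0.14).

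UNC5B is also known from endothelial cells, so their markers are given beside it. In GFP-negative cells the summed level of 6 endothelial markers was 24.5 to 37.2 CPM in controls and 88.9 to 131 CPM after treatment, and 1 of the 5 markers tested was called higher and 2 lower. The gain was in KDR, a VEGF receptor, which rose from 9.39 ± 0.687 to 102 ± 21.9 CPM. The other 5 markers together went from 15.3 to 28.3 CPM down to 2.98 to 4.59 CPM, and VWF stayed at or under 0.435 CPM in all 12 libraries. In GFP-positive cells the 6 markers summed to 5.00 to 5.23 CPM in controls and 8.19 to 10.5 CPM after treatment. Without KDR they summed to 3.66 to 4.06 and 0.606 to 0.862 CPM.

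UNC5B-AS1 was close to undetected in the controls. It had 5, 3 and 3 counts in control GFP-positive libraries (0.186, 0.0872 and 0.0964 CPM) and 462, 394 and 598 counts in treated ones (13.9, 11.3 and 15.7 CPM). GFP-negative libraries had 6, 0 and 1 counts of it in controls and 142, 115 and 253 counts after treatment (6.11, 4.19 and 8.97 CPM). No control library came near a treated one in either fraction.

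With so few control counts the fitted fold change depends on the prior count, so pooled counts are given first. They were 1454 against 11 in GFP-positive cells, a ratio per total count of 131 (95% exact interval 73 to 263, for counting error only). The pooled counts in GFP-negative cells were 510 against 7, a ratio of 78.3 (37.7 to 196). Control GFP-negative replicate 1 held 6 of these 7 counts, and without it the ratio was 351 (62.8 to 13901), from 510 counts against 1. The fitted log2 fold changes were 6.86 (SE 0.36) and 6.25 (SE 0.74), without p-values because the gene passed the filter only through the treated libraries. The second was 8.19 without control GFP-negative replicate 1 and 5.63 without control GFP-negative replicate 2. Among treated cells UNC5B-AS1 was higher in the GFP-positive fraction, by 1.12 on the log2 scale (SE 0.26, adjusted p = 0.0034). This fell under 2-fold without treated GFP-negative replicate 2 (0.89) or treated GFP-positive replicate 3 (0.97).

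UNC5B-AS1 and UNC5B did not keep 1 ratio over the libraries. Per 100 UNC5B counts there were 4.35, 4.03 and 10.3 UNC5B-AS1 counts in treated GFP-positive and 1.52, 0.843 and 3.65 in treated GFP-negative replicates 1, 2 and 3. The control GFP-positive libraries had 2.79, 0.968 and 0.980 per 100, from 3 to 5 UNC5B-AS1 counts each. Treated replicate 3 had the lowest UNC5B and the highest UNC5B-AS1 in both fractions.

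**Figure D3:**
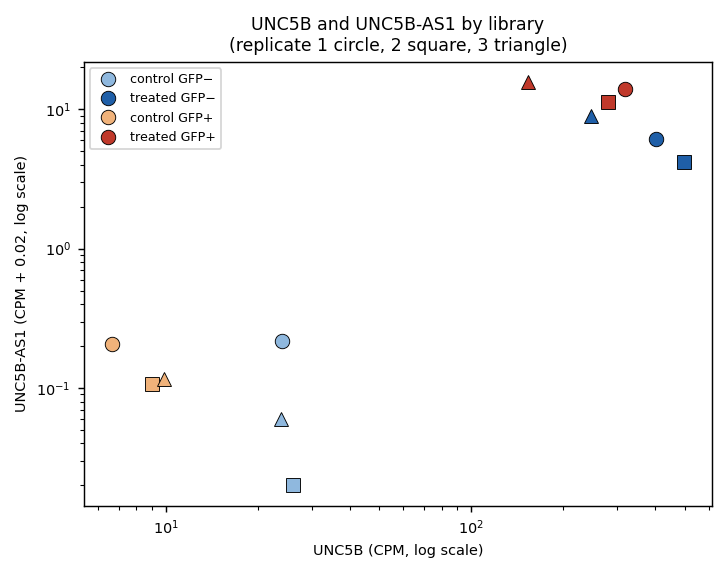
UNC5B (CPM, log scale) against UNC5B-AS1 (CPM plus 0.02, log scale) in the 12 libraries, coloured by group, with a symbol per replicate. Controls and treated libraries form separate clouds, and within treated cells replicate 3 (triangles) lies highest for UNC5B-AS1 and lowest for UNC5B in each fraction.

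The other 3 UNC5 receptor genes were lower after treatment in GFP-positive cells. UNC5C (chromosome 4, 95162504 to 95549206, minus strand) was at 108, 81.4 and 121 CPM in control and 23.8, 28.4 and 16.7 CPM in treated GFP-positive libraries. GFP-negative UNC5C went from 19.2, 16.1 and 18.4 CPM to 2.45, 4.08 and 2.13 CPM. Treated libraries were below all controls in both fractions, and treated GFP-positive libraries overlapped control GFP-negative ones. The log2 fold change was -2.10 (SE 0.19, adjusted p = 4.3e-11) in GFP-positive and -2.65 (SE 0.29, adjusted p = 0.00020) in GFP-negative cells. UNC5C was higher in the GFP-positive fraction both in controls (log2 difference 2.42, SE 0.19, adjusted p = 8.0e-06) and after treatment (3.01, SE 0.29, adjusted p = 4.3e-06).

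UNC5A (chromosome 5, 176810519 to 176880898, plus strand) was at 25.3, 28.5 and 23.2 CPM in control and 7.72, 7.81 and 5.47 CPM in treated GFP-positive libraries. In GFP-negative cells the levels were 8.64, 9.87 and 12.3 CPM before and 4.35, 4.84 and 3.26 CPM after treatment. Both fractions fell without overlap, by 1.81 (SE 0.21, adjusted p = 4.3e-09) and 1.33 (SE 0.27, adjusted p = 0.0046) on the log2 scale. Control GFP-positive cells had more UNC5A than control GFP-negative cells, by 1.21 (SE 0.21, adjusted p = 0.0011). After treatment this was 0.77 (SE 0.25, adjusted p = 0.021), under the 2-fold limit, and 1.14 once a trend with GC content was removed (adjusted p = 0.0020). Of the UNC5A exon bases, 30 (0.7%) overlap exons of HK3 on the other strand.

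UNC5D (chromosome 8, 35235475 to 35796550, plus strand) fell in GFP-positive cells. It was at 24.9, 30.4 and 43.2 CPM in control and 4.99, 4.71 and 4.26 CPM in treated GFP-positive libraries. Without the reporter, UNC5D was at 3.35, 8.08 and 7.56 CPM in controls and 5.21, 6.41 and 4.72 CPM after treatment. The GFP-positive groups were wide apart, whereas the treated GFP-negative values lay within the range of their controls. The log2 fold change was -2.74 (SE 0.22, adjusted p = 1.2e-12) in GFP-positive and -0.24 (SE 0.35, adjusted p = 0.63) in GFP-negative cells. The interaction of treatment and sort fraction, fitted over all 12 libraries, was -2.59 (SE 0.41, adjusted p = 0.0043). Control GFP-positive cells held more UNC5D than control GFP-negative cells (log2 difference 2.26, SE 0.34, adjusted p = 0.00054), while treated fractions differed by -0.21 (SE 0.23, adjusted p = 0.48).

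Motor neuron markers moved in the same direction as UNC5A, UNC5C and UNC5D. Their summed level over 8 genes went from 1720 to 1930 CPM in control down to 510 to 704 CPM in treated GFP-positive libraries, with 6 of 8 called lower. In the other fraction it went from 300 to 343 CPM down to 109 to 144 CPM, with 5 of 8 called lower. None of the 8 was at 0, and the part of these markers in the UNC5 results was not tested.

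**Figure D4:**
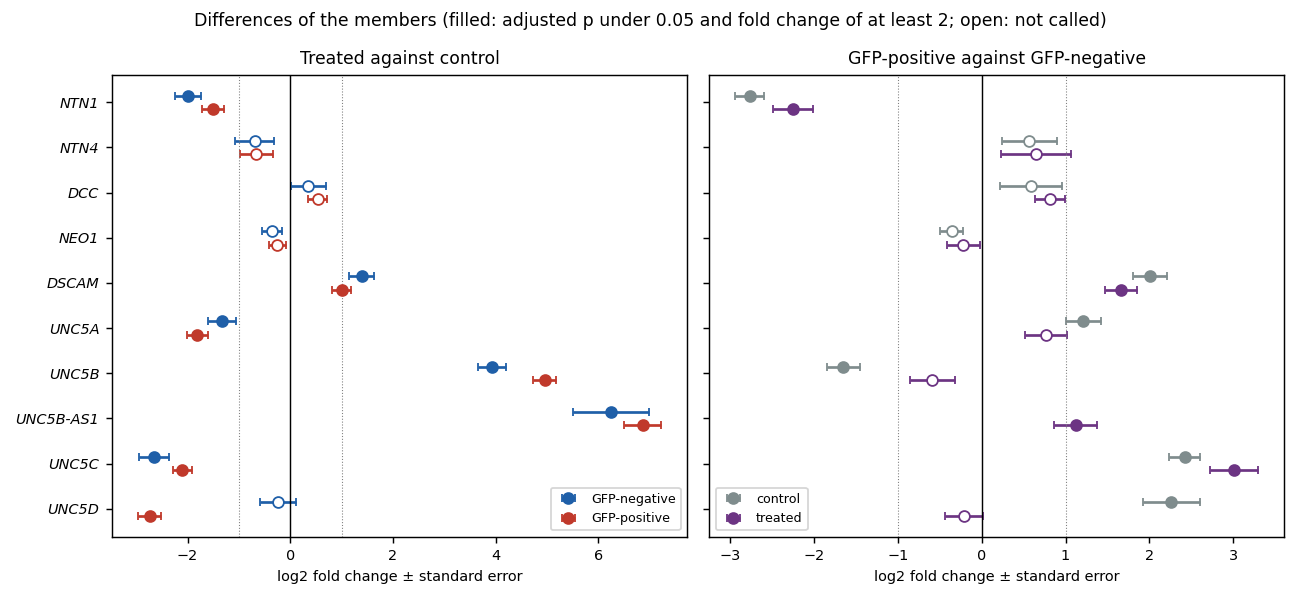
Log2 fold change with its standard error for each gene, treated against control on the left and GFP-positive against GFP-negative on the right. Filled points passed the adjusted p and the 2-fold limit. On the left UNC5B-AS1 is filled too, but it passed the filter on low counts only through the treated libraries, so it had to differ. UNC5D is filled in GFP-positive cells alone on the left and in controls alone on the right.

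The interaction was called in 2.19% of the 16226 genes tested (157 or 0.968% higher and 198 or 1.22% lower, with no limit on fold), and UNC5D was the 1 member called. With library size alone as the scaling, 266 were higher and 84 lower, and with RLE factors 171 and 145. A positive interaction means a change that is more positive in GFP-positive cells. For UNC5B the interaction was 0.94 (SE 0.37, adjusted p = 0.22). When the 2 sorts of each culture were treated as a pair (replicate block), it was 0.94 with an SE of 0.20 (adjusted p = 0.012), and 7.79% of all genes were then called (3.2% higher and 4.59% lower). For the other 8 genes the estimates ran from -0.56 for UNC5A to 0.50 for UNC5B-AS1, with adjusted p from 0.37 to 0.98.

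Levels can be set between genes only per length, so CPM was divided by kilobases of annotated exons. On this scale the summed UNC5 level was 19.9 ± 1.98 CPM per kb in control and 40.9 ± 13.5 in treated GFP-positive cells. In GFP-negative cells it was 8.25 ± 0.580 and 57.5 ± 18.9 CPM per kb. UNC5C led the UNC5 receptors of control GFP-positive cells, with 48.4% ± 6.0 of their summed level, followed by UNC5A at 30.3% ± 5.85, UNC5D at 15.1% ± 3.06 and UNC5B at 6.24% ± 1.08. In treated GFP-positive cells UNC5B made up 89.3% ± 1.93 of it. UNC5B also led in control GFP-negative cells, at 43.9% ± 3.48, and made up 96.9% ± 0.526 after treatment. The lowest treated share of UNC5B, 87.4%, was above the highest control share, 46.1%.

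**Figure D5:**
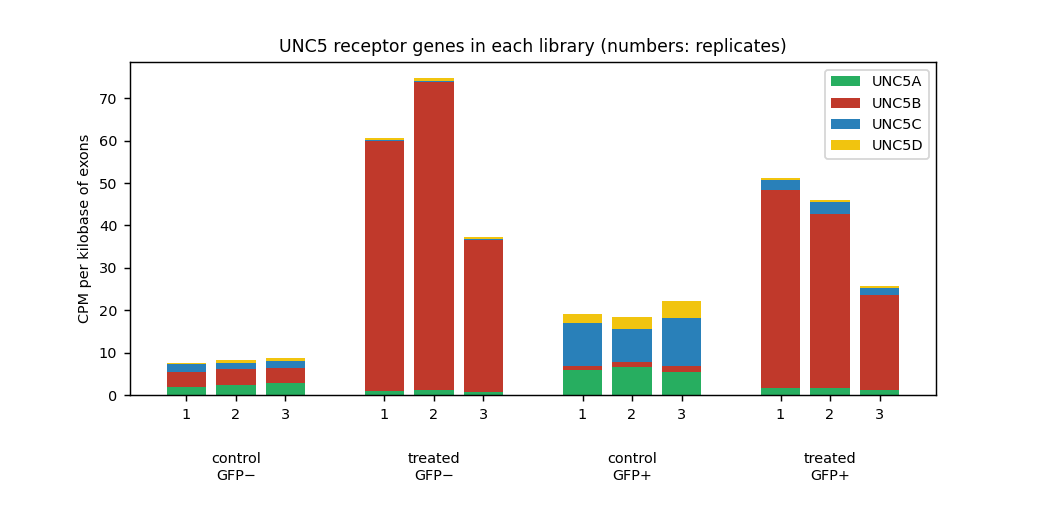
CPM per kilobase of exons of the 4 UNC5 receptor genes, stacked for each of the 12 libraries in 4 groups. Treated bars are mostly UNC5B, control GFP-positive bars are mostly UNC5C and UNC5A, and the summed height ranges from 7.62 to 74.7.

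Of the ligands, NTN1, which encodes netrin-1 (chromosome 17, 9021510 to 9244000, plus strand), was mainly a gene of the GFP-negative cells. It was at 104, 118 and 79.1 CPM in control and 19.5, 34.8 and 22.9 CPM in treated GFP-negative libraries. In GFP-positive cells it was at 15.5, 16.3 and 15.7 CPM in controls and 5.32, 4.97 and 5.66 CPM after treatment. All treated libraries were under all controls of their fraction. NTN1 fell by 1.99 (SE 0.25, adjusted p = 0.00040) in GFP-negative and by 1.5 (SE 0.21, adjusted p = 2.1e-07) in GFP-positive cells on the log2 scale. It was lower in GFP-positive than in GFP-negative cells, by -2.77 in controls (SE 0.17, adjusted p = 2.0e-06) and -2.25 after treatment (SE 0.24, adjusted p = 9.2e-06).

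Floor plate markers are given beside NTN1. The 6 genes summed to 26.1 to 59.6 CPM in control and 11.4 to 22.8 CPM in treated GFP-negative libraries, and 4 of the 4 tested were called lower. In GFP-positive cells they summed to 8.32 to 9.53 and 1.98 to 2.42 CPM, 3 of the 3 tested were called lower, and FERD3L was at 0 in the treated libraries. FOXA2, which defines the floor plate, was at 22.0 ± 7.37 CPM in control and 9.61 ± 3.24 CPM in treated GFP-negative cells. Of 6 progenitor and cell cycle markers, 3 were called lower and 0 higher in treated GFP-negative cells. The progenitor gene NES went from 2630 ± 759 to 1120 ± 204 CPM, and the proliferation genes MKI67 and TOP2A went from 168 ± 25.8 to 32.1 ± 14.0 CPM and from 122 ± 47.6 to 54.1 ± 7.95 CPM. The other 3 were not called, with SOX2 at 109 ± 9.09 and 114 ± 14.8 CPM, PAX6 at 35.2 ± 3.68 and 38.5 ± 2.53 CPM and VIM at 3850 ± 259 and 6430 ± 583 CPM. The 6 genes summed to 6130 to 7950 CPM in control and 7270 to 8290 CPM in treated GFP-negative libraries, and without VIM to 2488 to 3807 and 1196 to 1621 CPM. None of the 6 was at 0. In GFP-positive cells 1 of the 6, PAX6, was called higher, from 7.95 ± 1.86 to 30.4 ± 3.72 CPM. MKI67 was called lower there, from 19.1 ± 6.83 to 8.36 ± 0.676 CPM, and the other 4 were not called. Summed, the 6 were at 2920 to 3270 CPM in control and 2340 to 3180 CPM in treated GFP-positive libraries. The part of these markers in the fall of NTN1 was not tested.

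NTN4, which encodes netrin-4, a netrin of basement membranes (chromosome 12, 95657807 to 95791189, minus strand), was low throughout. It was at 5.26, 3.17 and 5.50 CPM in control and 3.81, 3.42 and 1.18 CPM in treated GFP-positive libraries, which overlap. The GFP-negative values were 2.27, 2.53 and 3.84 CPM before and 2.07, 2.26 and 1.10 CPM after treatment. The log2 fold changes were -0.66 (SE 0.32, adjusted p = 0.083) and -0.69 (SE 0.38, adjusted p = 0.19). Sort fractions differed by 0.57 (SE 0.33, adjusted p = 0.20) in controls and 0.65 (SE 0.42, adjusted p = 0.22) after treatment.

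Neither DCC nor NEO1 was called in either treatment comparison. DCC (chromosome 18, 52340197 to 53535899, plus strand) was at 32.8, 44.3 and 63.1 CPM in control and 71.3, 64.4 and 57.3 CPM in treated GFP-positive libraries. GFP-negative DCC was at 14.3, 28.9 and 42.5 CPM before and 37.8, 43.4 and 30.0 CPM after treatment. Controls were spread widely and overlapped the treated libraries in both fractions. The log2 fold change was 0.53 (SE 0.19, adjusted p = 0.018) in GFP-positive cells, under the 2-fold limit, and 0.35 (SE 0.34, adjusted p = 0.46) in GFP-negative cells. The sort difference in controls was 0.59 (SE 0.37, adjusted p = 0.23), and 1.03 (adjusted p = 0.0048) without control GFP-negative replicate 3. After treatment it was 0.81 (SE 0.18, adjusted p = 0.0024), again under 2-fold. Of the DCC exon bases, 190 (1.4%) overlap the noncoding gene LINC01917 on the other strand.

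NEO1 (chromosome 15, 73051710 to 73305205, plus strand), which encodes neogenin, was abundant in all 4 groups. It was at 149, 161 and 184 CPM in control and 141, 141 and 112 CPM in treated GFP-positive libraries. The GFP-negative values were 181, 208 and 199 CPM before and 144, 202 and 119 CPM after treatment. Treated GFP-positive libraries lay just below their controls and the GFP-negative ones overlapped. The log2 fold changes were -0.25 (SE 0.16, adjusted p = 0.19) and -0.36 (SE 0.20, adjusted p = 0.20), and sort fractions differed by -0.36 (SE 0.14, adjusted p = 0.066) in controls and -0.22 (SE 0.20, adjusted p = 0.37) after treatment. Of the summed DCC and NEO1 level per kb, DCC made up 14.7% ± 2.77 in control and 23.3% ± 1.09 in treated GFP-positive cells.

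DSCAM (chromosome 21, 40010999 to 40847158, minus strand) was higher after treatment in both fractions. It was at 16.1, 19.8 and 16.8 CPM in control and 38.3, 29.2 and 33.0 CPM in treated GFP-positive libraries. GFP-negative DSCAM rose from 4.47, 4.03 and 3.60 CPM to 12.6, 10.5 and 9.26 CPM. Neither pair of groups overlapped. The log2 fold change was 1.39 (SE 0.24, adjusted p = 0.0024) in GFP-negative cells. In GFP-positive cells it was 1.00 (SE 0.19, adjusted p = 3.2e-05), at the 2-fold limit, and 8 of 15 other settings put it just under that limit, with a range of 0.88 to 1.12. DSCAM was higher in the GFP-positive fraction by 2.01 in controls (SE 0.20, adjusted p = 3.9e-05) and 1.66 after treatment (SE 0.19, adjusted p = 2.1e-05).

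The sort comparisons ask where each gene was expressed. In controls DSCAM, UNC5A, UNC5C and UNC5D were higher and NTN1 and UNC5B lower in GFP-positive cells, 6 of the 9 genes tested against 22.8% of all 15404 (7.47% higher and 15.3% lower). After treatment DSCAM, UNC5B-AS1 and UNC5C were higher and NTN1 lower, 4 of 10 against 23.7% of 15416 (10% higher and 13.7% lower). UNC5B-AS1 had too few counts to be tested in controls. Fractions did not overlap for 6 genes in controls (53.3% of all genes tested) and for 6 after treatment (57.7%). With library size alone as the scaling, 55.8% of the genes called after treatment were higher in GFP-positive cells, against 42.1% with the scaling used here. In controls, removal of a trend with GC content moved that share from 32.8% to 46.5%. These comparisons share libraries with those of treatment, so they are not independent of them.

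On the per-kb scale NEO1 led the 10 genes in both control groups, with a mean of 20.3 CPM per kb in GFP-positive and 24.1 in GFP-negative cells. In control GFP-positive cells UNC5C (9.68), UNC5A (5.95), DCC (3.57), UNC5D (3.04), NTN1 (2.47), DSCAM (2.05), UNC5B (1.24), NTN4 (1.06) and UNC5B-AS1 (0.159) followed in mean CPM per kb. There DCC and UNC5D overlapped, as did UNC5D and NTN1, and UNC5B and NTN4. Control GFP-negative cells had NTN1 second, at 15.7 CPM per kb, and UNC5B next, at 3.61. UNC5B led both treated groups, with 36.7 CPM per kb in GFP-positive and 55.8 in GFP-negative cells. UNC5D was last in treated GFP-positive cells, at 0.431 CPM per kb, and overlapped NTN4, at 0.643.

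Further genes of netrin signalling were taken from a list of 60 ligands, receptors, partners and downstream proteins. In GFP-positive cells 5 of the 59 tested were called higher and 12 lower, which is 8.47% and 20.3% against 12.8% and 11.2% of all genes. The median log2 fold change was -0.14, against 0.03 over all genes tested. In GFP-negative cells 3 were higher and 6 lower of 59, or 5.08% and 10.2% against 8.59% and 9.75% of all genes, with a median of -0.04 against -0.01. Among other ligands 0 were higher and 6 lower of 12 in GFP-positive cells, and 1 higher and 2 lower in GFP-negative cells. Of 25 genes downstream of DCC, 1 (TUBB3, a neuronal tubulin) was lower in GFP-positive cells and 0 passed in GFP-negative cells. These counts rest on the 2-fold limit, since others of the 25 had an adjusted p under 0.05 with a smaller change. Such log2 fold changes ran from -0.99 to 0.96 in GFP-positive and from -0.77 to 0.87 in GFP-negative cells.

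The largest falls of this list in GFP-positive cells were those of LRRC4C, LRRC4, RGMA and FLRT2. LRRC4C, a receptor for netrin-G1, fell from 25.2 ± 4.30 CPM to 2.80 ± 0.884 CPM (log2 fold change -3.09, SE 0.24, adjusted p = 4.4e-13). LRRC4, a receptor for netrin-G2, went from 56.1 ± 1.82 to 10.6 ± 0.388 CPM (log2 fold change -2.34). RGMA, a ligand of NEO1, fell from 235 ± 19.2 to 47.9 ± 15.4 CPM (-2.22 on the log2 scale). The UNC5 ligand FLRT2 fell from 24.1 ± 2.25 to 6.42 ± 2.47 CPM (-1.83). LRRC4C and RGMA led the falls in GFP-negative cells too, with log2 fold changes of -3.43 and -2.18.

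ADORA2B, an adenosine receptor studied as a netrin-1 partner, rose most, from 0.185 ± 0.124 to 1.33 ± 0.281 CPM in GFP-positive cells (log2 fold change 2.85, SE 0.50). DSCAML1, a paralog of DSCAM, rose from 0.373 ± 0.163 to 1.90 ± 0.493 CPM (2.40). Group means of both were at most 3.64 CPM. In GFP-positive cells both passed the filter on low counts only with the treated libraries, which favoured a rise in advance. The same holds for DSCAML1 in GFP-negative cells. ADAM17, a protease that sheds membrane proteins, rose from 17.8 ± 4.6 to 47.3 ± 11.0 CPM (1.48). In GFP-negative cells 3 genes were called higher. They were DSCAML1, by 2.55, NTNG1, which encodes netrin-G1, a membrane-anchored relative of netrins, by 1.40, and ADAM17, by 1.21 on the log2 scale. NTNG1 went from 2.87 ± 0.900 to 7.74 ± 2.06 CPM there (SE 0.34, adjusted p = 0.011) and from 3.41 ± 0.673 to 3.90 ± 1.13 CPM in GFP-positive cells (adjusted p = 0.45), and its interaction had an adjusted p of 0.17. No gene of the list was called in opposite directions in the 2 fractions.

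Genes whose pattern was most like that of each member were found by Pearson's r of log2(CPM + 0.5) over the 12 libraries. The libraries fall into 4 groups, so r mostly follows group means and is a description. UNC5B was closest to TNFRSF10B, a TRAIL death receptor (r = 0.990), STT3A, a subunit of the oligosaccharyltransferase, and SLC6A9, a glycine transporter (0.988 each). UNC5B-AS1 was closest to the mitochondrial folate enzyme MTHFD2 (0.994), the stress transcription factor DDIT3 and the hexosamine pathway enzyme PGM3 (0.992 each). UNC5C was closest to SOBP (0.997), UNC5A to CDH22 (0.989) and UNC5D to FGF10 (0.972). NTN1 was closest to UHRF1 (0.995), DCC to PGAP1 and PCLO (0.981 each), DSCAM to ST7 (0.981), NEO1 to STAT5B (0.965) and NTN4 to PCDHA5 (0.970), whose exons are partly shared with other protocadherin alpha genes. No member was among the 3 nearest genes of another.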

How the data were processed

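Illumina Stranded mRNA libraries were sequenced as single-end reads of 100 bases. Per the labels and the study's methods, the authors joined lanes, mapped reads to hg38 (GRCh38) with HISAT2 and counted them per gene with featureCounts, and the deposited values are raw counts (whole numbers). The strand option of the counting is not given in the sources used here. Treatment was read from the treatment entry of the labels, since the titles of treated samples also begin with the word untreated. Per-sample columns left unused numbered 0.

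Genes were filtered with filterByExpr (minimum count 10, total 15), scaled by TMM and tested with the quasi-likelihood F-test of edgeR 4.0.16 (R 4.3.3), and p-values were adjusted by Benjamini-Hochberg over every gene in the fit. Each comparison used its own 6 libraries, and the interaction all 12. A call needed an adjusted p under 0.05 and, except for the interaction, a 2-fold change. With 3 against 3 libraries an exact permutation test cannot go below p = 0.1, so none was used. The authors' methods used DESeq2, which was run here (1.42.0) as an alternative, beside other scalings and filters, the replicate block, removal of a loess trend with GC content (span 0.5), 1 fit of all libraries and each library left out. CPM uses library sizes after TMM scaling over the 12 libraries. Levels per kb used the union of GENCODE 44 exons. The fits were tested on simulated data.

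The sorts of 1 culture share a replicate number. After the group means were taken off, they correlated at 0.16 to 0.54 in each of the 6 pairs over 13368 genes with at least 10 counts in every library (0.08 to 0.29 over 16187 genes of the usual filter), so the numbers were taken to pair the sorts. No 2 libraries of the same group agreed within counting noise, and pairs across groups were not checked for this. The members and gene lists were chosen with earlier results of these data known. The text names all 10 members, up to 4 genes of the pathway list with the largest called change each way in GFP-positive cells and 2 each way in GFP-negative cells, the genes nearest in pattern, the markers set beside a result, and genes whose exons overlap a member on the other strand. The values of 1 gene that this rule names are not reported here. Depth sets the precision, since a gene with few counts, such as UNC5B-AS1 in controls, has a wide interval that covers counting error only.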

Additional observations from a re-analysis of the deposited data

Results flagged for a closer look

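UNC5D is listed because its response to treatment differed between the sort fractions by a test of that difference. The interaction of treatment and sort fraction was -2.59 on the log2 scale (SE 0.41, edgeR adjusted p = 0.0043 among 16226 genes). UNC5D was lower in 3 of 3 treated GFP-positive libraries than in any control of that fraction, while the treated GFP-negative libraries lay within the range of their controls. Over 20 other settings the interaction ran from -2.81 to -2.26, with adjusted p from 6.5e-07 to 0.023. In GFP-negative cells the level, 3.35 to 8.08 CPM in controls, was already low before treatment.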

How the results depend on the processing

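Of 782 values of single members under other settings, 744 kept their direction and side of the threshold, as did 291 of 320 counts of called genes within 1.5 times and 8 of 8 UNC5 shares. The 744 include UNC5B-AS1 in both treatment comparisons, kept in 14 of 14 settings each, although there it had to differ. In the interaction, 157 genes were higher and 198 lower, against 411 and 378 with DESeq2, 266 and 84 with library size alone, 105 lower with at least 10 counts in every library, 519 and 745 with the replicate block, and 537 and 580 with the block and the GC trend removed. Under both block settings 1 member, UNC5B, was called higher. Leaving out single libraries gave 68 to 212 higher and 47 to 202 lower, lowest for higher without treated GFP-negative replicate 1 and for lower without treated GFP-positive replicate 1. Each library but control GFP-negative replicates 1 and 3 and treated GFP-positive replicate 2 moved at least 1 of these counts by over 1.5 times. Treated GFP-negative replicate 2 and treated GFP-positive replicate 3 moved the lower count alone, and the rest of these libraries moved both. In the control sort comparison 1763 genes were higher with the GC trend removed and 1860 with the block as well, against 1151. The cause of these shifts was not tested. The replicate block changed no other member call but DSCAM in GFP-positive cells, at 1.00 just under the limit. Treated and control libraries of 1 number correlated at -0.08 to 0.25 over the 13368 genes with at least 10 counts in every library. Over the 16187 genes of the usual filter this was -0.05 to 0.27. The upper values lie within the range of the sort pairs, so whether treated and control libraries pair cannot be told.

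Members whose sign changed had small interactions. NTN4 (-0.05) became 0.01 with DESeq2 or RLE factors, 0.19 with library size alone, 0.11 with at least 10 counts in every library, and ran from -0.31 to 0.47 without single libraries. DCC (0.09) became 0.00 with the GC trend removed, -0.05 with the block as well, and ran from -0.31 to 0.45 without single libraries. NEO1 (0.02) ran from -0.12 to 0.28 without single libraries, and its treated sort difference (-0.22) from -0.39 to 0.04, above 0 without treated GFP-negative replicate 2. UNC5B-AS1 (0.50) became -1.44 without control GFP-negative replicate 1, which holds 6 of its 7 control counts there, and reached 1.14 without replicate 2. It could not be fitted with at least 10 counts in every library. Library size alone moved the median of all genes from 0.03 to 0.14 in GFP-positive cells, from 0.05 to 0.22 in the treated sort comparison and from -0.05 to 0.20 in the interaction, and GC removal moved it from -0.02 to 0.16 in the control sort comparison.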

Other observations

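In the pathway list the interaction of treatment and sort fraction was called for 3 of the 59 genes tested. That is 1 higher (1.69%) and 2 lower (3.39%), against 0.968% and 1.22% of all genes tested. The 3 genes are named here after their values were seen, and they were not followed under other settings. MCAM, an adhesion molecule studied as a netrin-1 receptor, went from 25.6 to 61.6 CPM in GFP-positive cells and from 40 to 38.2 CPM in GFP-negative cells (interaction 1.34, SE 0.23, adjusted p = 0.0077). PRKCA, a kinase known to bring UNC5A in from the cell surface, went from 116 to 66.6 CPM in GFP-positive and from 53.8 to 78.1 CPM in GFP-negative cells (interaction -1.32, SE 0.31, adjusted p = 0.037). VASP, an actin regulator downstream of DCC, went from 87.9 to 70.6 CPM in GFP-positive and from 111 to 173 CPM in GFP-negative cells (interaction -0.95, SE 0.21, adjusted p = 0.030).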
